A study of Mus musculus with 26 samples.

Results

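Granulocyte-macrophage progenitors (GMP) were compared with long-term hematopoietic stem cells (LT-HSC), both taken by flow sorting from the bone marrow of wild-type C57BL/6 mice. The comparison rests on 8 of the 26 expression arrays in the study, 4 of each cell type, chosen by the sample labels alone. The sorted cells were neither cultured nor given doxycycline (dox). Age and sex of the mice, sort gates and cell or animal numbers per array were not given in the sources used here. Lines immortalized from LT-HSC or from GMP make up the 18 remaining arrays. They were grown with or without dox in a study of the leukaemia fusion MLL-AF9, and were used for the spread of each gene and for a comparison at the end. The lines differ from the fresh cells in culture and immortalization as well as in origin. The labels call the sorted replicates biological, but nothing says that they came from separate animals, so p-values cover only how far these samples spread.

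LT-HSC are rare, mostly non-dividing cells that can rebuild all blood lineages after transplantation. GMP lie several steps further down, divide fast and give rise to granulocytes, monocytes, some dendritic cells, mast cells and basophils. The passage from stem cell to GMP is known for the loss of stem cell transcription factors and of receptors that tie the cell to its niche, and for the rise of C/EBP and PU.1 factors, which switch on the enzymes that neutrophils store in primary granules.

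Values are log2 signals of probe sets as deposited, so a difference of 1 is 2-fold, and every difference is GMP minus LT-HSC ± its standard error (SE) in the fit. A gene was called at an adjusted p under 0.05 in limma, a linear model fitted to all genes and all 26 arrays, with Benjamini-Hochberg adjustment over 19937 genes. Of these genes 32.1% were called: 3359 were higher in GMP (16.8%) and 3043 lower (15.3%), around a median difference of -0.01 over all genes. By at least 2-fold 1074 genes (5.39%) differed, 509 higher (2.55%) and 565 lower (2.83%), and the 4 arrays of each type did not overlap for 16.1% of genes on the higher side and 14.6% on the lower. Arrays of a type correlated over probe sets with r between 0.982 and 0.985 for LT-HSC and between 0.988 and 0.991 for GMP, against 0.954 to 0.965 between types. The number of arrays limits the precision. As a guide to dim signal, 1027 olfactory receptor genes, which blood cells are not known to use, had a median of 3.67 in LT-HSC and 3.65 in GMP and a 95th percentile of 5.57 and 5.48. A gene at or under such levels in a group has an uncertain level there, and its difference is likewise uncertain in size. The array measures the average of a sorted population, so fewer cells of a type and less RNA per cell cannot be told apart. Per-array values are given in the order of the replicate numbers 1 to 4, which name the arrays and were not taken as pairs in the reported fit. Genes named as exceptions within a list were chosen after their values were seen.

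Several surface genes commonly used to define such populations separated the arrays. Which of them these sorts used was not given. Cd48, a SLAM family protein that LT-HSC lack, gave 5.11, 5.51, 5.42 and 4.51 in the LT-HSC arrays and 9.29, 9.49, 9.42 and 9.41 in the GMP arrays. Fcgr3, the Fc gamma receptor (CD16) commonly used to gate GMP, gave 5.47, 5.29, 5.01 and 5.37 in LT-HSC and 9.05, 9.01, 8.92 and 8.78 in GMP. Every GMP array stood above every LT-HSC array for both genes, and the differences were 4.27 ± 0.15 (19.2-fold, adjusted p = 1.14e-16) and 3.66 ± 0.11 (12.6-fold, adjusted p = 6.52e-18). Slamf1 (CD150), the SLAM protein that marks LT-HSC, ran the other way, with 6.44, 6.48, 6.50 and 6.83 in LT-HSC and 3.20, 3.40, 3.55 and 3.43 in GMP. Its groups did not overlap either (-3.17 ± 0.10, adjusted p = 7.57e-18). Procr (EPCR), another stem cell marker, fell by 1.68 ± 0.09, the stem cell factor receptor Kit by 1.40 ± 0.15 and the integrin Itga2b (CD41) by 1.15 ± 0.15. Fcgr2b rose by 1.71 ± 0.12 and Cd34 by 0.96 ± 0.23. The remaining 4 of the 12 measured sort markers were not called: Thy1 (-0.27 ± 0.53), Flt3 (-0.11 ± 0.25), Ptprc (-0.18 ± 0.07) and Il7r (0.06 ± 0.15). Without LT-HSC replicate 2 or GMP replicate 2 Ptprc was called lower (-0.21 in both fits). Ly6a, which encodes Sca-1, was not analysed here.

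Short marker lists for 10 cell types were read in each array as the mean of the members' log2 signals. The 5 measured LT-HSC markers averaged 7.62 to 7.71 in the LT-HSC arrays and 4.95 to 5.10 in the GMP arrays, and all 5 were called lower in GMP. The 7 GMP markers averaged 6.01 to 6.47 in LT-HSC and 10.17 to 10.31 in GMP, and all 7 were called higher. Both labels thus matched their markers in all 8 arrays. Markers of B cells stayed between 5.08 and 5.43 and those of T cells between 4.86 and 5.09 in all 8 arrays, with none of the 7 called. Mast cell and basophil markers averaged 5.37 to 5.77 in LT-HSC and 6.92 to 7.53 in GMP, monocyte markers 4.73 to 5.50 and 9.32 to 9.49, and megakaryocyte markers 7.46 to 7.76 and 5.33 to 5.99. The 2 measured erythroid markers stayed under the 95th percentile of olfactory receptor genes on average in every array, with 1 of them called lower. Neutrophil markers varied more within a type than between types, from 6.37 to 7.85 in LT-HSC, highest in replicate 3, and from 6.26 to 8.04 in GMP, highest in replicate 2. Stromal and endothelial markers averaged 6.10 to 6.28 in LT-HSC and 5.06 to 5.11 in GMP. Of these 4 markers 2 were called lower, among them Emcn with a large fall (-3.92 ± 0.07). Whether other cells in the sorts had a part in the results was not tested.

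**Figure D1:**
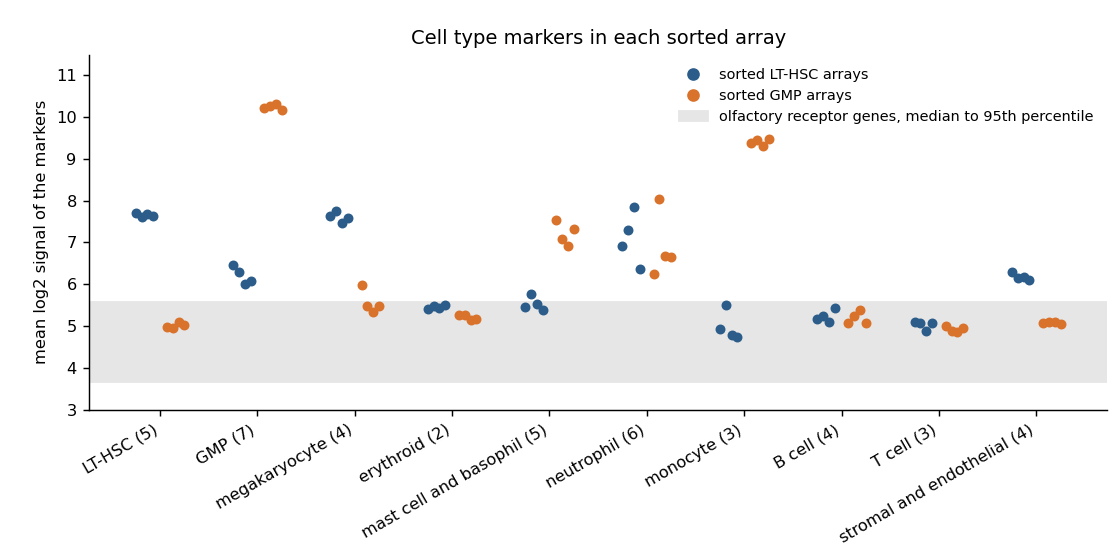
Mean log2 signal of the measured markers of each cell type (rows of points) in each of the 8 sorted arrays, with the grey band running from the median to the 95th percentile of olfactory receptor genes. The LT-HSC markers lie at 7.62 to 7.71 in the LT-HSC arrays against 4.95 to 5.10 in the GMP arrays, and the GMP markers at 10.17 to 10.31 in GMP against 6.01 to 6.47 in LT-HSC.

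The largest increases in GMP took in genes of several kinds. Ifi209, an interferon-inducible gene of the Ifi200 family, gave 4.78, 5.06, 4.92 and 3.54 in LT-HSC and 10.30, 10.33, 10.22 and 10.58 in GMP (5.79 ± 0.54, adjusted p = 5.43e-09). Atp8b4, a lipid-flipping ATPase, gave 5.76, 5.34, 5.38 and 4.96 against 11.02, 11.11, 11.04 and 11.05 (5.70 ± 0.10, adjusted p = 9.79e-23). Both went from the level of dim probe sets in LT-HSC to high signal in each GMP array, with no overlap. The inhibitory lectin receptor Clec12a rose by 5.36 ± 0.12, coagulation factor F13a1, made by monocytes, by 5.24 ± 0.27, the orphan receptor Gpr141 by 4.45 ± 0.19 and the Ly6 family gene Ly6a2 by 4.24 ± 0.28. Ly6a2 was uneven among the LT-HSC arrays, at 5.99 and 5.91 in replicates 2 and 3 and 4.44 and 4.23 in replicates 1 and 4, while the GMP arrays lay between 9.04 and 9.67.

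Among the largest decreases, Myct1, a nuclear gene of stem and endothelial cells, gave 10.14, 9.78, 10.14 and 9.81 in LT-HSC and 5.01, 4.42, 4.92 and 4.83 in GMP (-5.17 ± 0.28, adjusted p = 2.02e-13). Mmrn1, multimerin of platelets and endothelium, gave 8.28, 8.05, 8.51 and 8.47 against 3.52, 3.45, 3.45 and 3.51 (-4.84 ± 0.08, adjusted p = 8.11e-23). The GMP values of both lay at or under the 95th percentile of olfactory receptor genes, so the sizes of their differences are uncertain, although the groups were far apart. Several kinases and channels of signalling fell with them: the protein kinases C Prkch (-4.43 ± 0.23, and -2.99 on its other probe set) and Prkcq (-3.79 ± 0.17), the cGMP-dependent kinase Prkg1 (-4.0 ± 0.08) and the cation channel Trpc6 (-4.04 ± 0.11). Bex1 fell by 4.63 ± 0.28, the protease inhibitor Ctla2a by 4.74 ± 0.53, Plxdc2 by 4.30 ± 0.39 and the endothelial sialomucin Emcn by 3.92 ± 0.07. Of the called genes, 45 rose by at least 3 and 50 fell by at least 3 on the log2 scale.

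**Figure D2:**
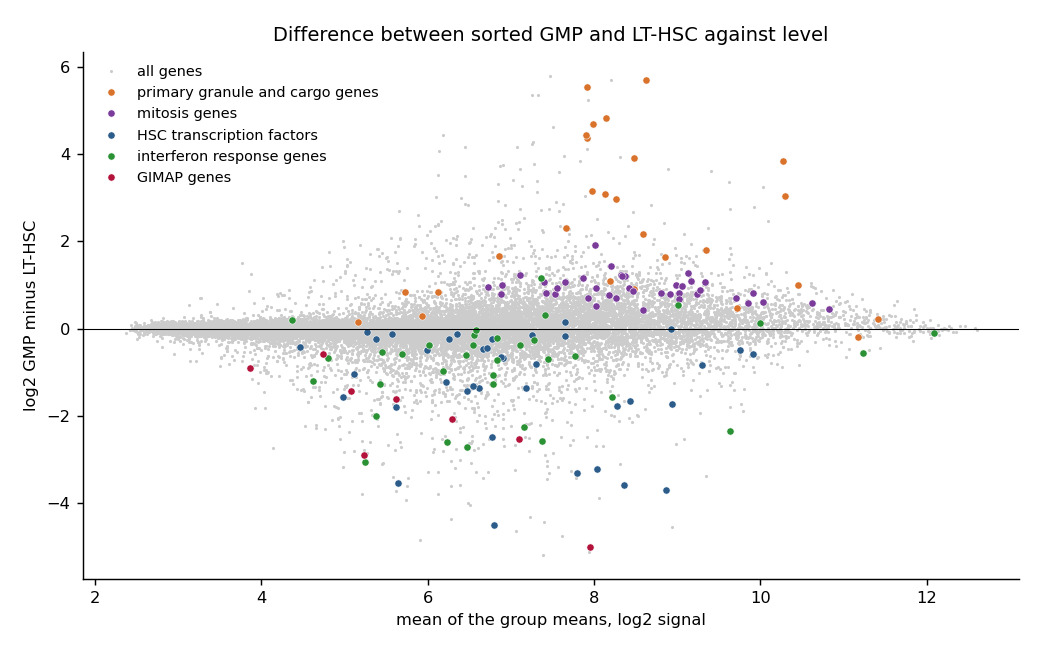
Log2 difference of GMP minus LT-HSC (vertical axis) against the mean log2 signal of both types (horizontal axis) for the 19937 genes (grey), with members of 5 gene lists in colour. Most genes lie near the median difference of -0.01, with 509 genes at least 2-fold higher and 565 at least 2-fold lower.

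Primary granule and secretory cargo genes had the highest median of the 41 lists, whose members were chosen with earlier results of these data known. Of 27 measured members 24 were called higher and 1 lower, with a median difference of 2.16, and 18 of the 24 were at least 2-fold higher. Mpo, the myeloperoxidase that gives these granules their enzyme activity, gave 8.82, 8.64, 7.94 and 7.98 in LT-HSC and 12.20, 12.19, 12.19 and 12.18 in GMP (3.84 ± 0.15, 14.4-fold, adjusted p = 4.43e-16). Its LT-HSC arrays were thus far from dim, and its GMP arrays were closely alike. Prtn3, proteinase 3, gave 7.01, 7.08, 6.16 and 6.90 in LT-HSC and 9.66, 9.77, 9.87 and 9.69 in GMP (2.96 ± 0.14). Cst7, an inhibitor of granule cathepsins, rose by 4.68 ± 0.13, the annexin Anxa3 by 4.44 ± 0.10, haptoglobin (Hp) by 4.36 ± 0.18 and the myeloid receptor Igsf6 by 3.90 ± 0.11. None of these overlapped between the types. The called member on the lower side was the tetraspanin Cd63 (-0.19), whose call was lost without LT-HSC replicate 1, 2 or 3 (-0.15, -0.19 and -0.19) or GMP replicate 1 or 4 (-0.19 and -0.17). Mogat2 and Alox5 were not called.

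The stretches before the start sites of granule genes are shown because members of the list moved together, and because PU.1, an ETS factor, is known to act at promoters of this kind. The 250 bases before the start of each gene were searched on both strands for GAGGAA, the core that PU.1 prefers. It was found in 11 of 24 promoters of the list (45.8%), in 23.3% of all 32851 promoters in the RefSeq table of GRCm38.p6 and in 28.1% of the promoters of genes at least 2-fold higher in GMP. For genes at least 2-fold lower the share was 25.2%. Lists with 1 or no member called higher held it often too: megakaryocyte genes in 57.1%, erythroid genes in 54.5% and T and NK cell genes in 50% of their promoters, next to 63.6% for late neutrophil genes. Printed below are the 4 list members with the largest difference whose promoter holds the letters, 5′ to 3′ on the gene's strand, with GAGGAA or its reverse complement TTCCTC in capitals.
Ctsg (chr14:56102575-56102824, minus strand): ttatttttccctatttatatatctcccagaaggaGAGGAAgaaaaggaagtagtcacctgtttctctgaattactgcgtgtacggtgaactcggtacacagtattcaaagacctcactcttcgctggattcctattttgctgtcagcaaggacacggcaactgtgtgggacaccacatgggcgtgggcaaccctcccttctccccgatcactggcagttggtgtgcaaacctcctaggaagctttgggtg
Elane (chr10:79886062-79886311, plus strand): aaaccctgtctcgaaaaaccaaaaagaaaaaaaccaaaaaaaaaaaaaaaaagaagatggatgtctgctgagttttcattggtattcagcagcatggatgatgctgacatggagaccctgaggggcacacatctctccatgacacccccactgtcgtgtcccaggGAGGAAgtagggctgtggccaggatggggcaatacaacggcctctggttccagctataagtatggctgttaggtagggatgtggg
Igsf6 (chr7:121074531-121074780, minus strand): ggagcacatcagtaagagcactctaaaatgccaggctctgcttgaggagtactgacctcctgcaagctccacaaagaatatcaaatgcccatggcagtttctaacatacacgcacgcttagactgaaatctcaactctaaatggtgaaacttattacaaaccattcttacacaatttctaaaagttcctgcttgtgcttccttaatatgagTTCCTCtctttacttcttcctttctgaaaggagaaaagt
Mpo (chr11:87793534-87793783, plus strand): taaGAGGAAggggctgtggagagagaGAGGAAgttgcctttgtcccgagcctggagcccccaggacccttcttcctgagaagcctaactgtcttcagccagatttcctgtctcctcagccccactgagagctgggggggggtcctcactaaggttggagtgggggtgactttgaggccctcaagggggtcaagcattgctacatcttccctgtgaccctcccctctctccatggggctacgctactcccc
The motif lay from 216 to 211 bases before the start of Ctsg and from 85 to 80 bases before that of Elane. In Igsf6 it lay on the opposite strand from 39 to 34 bases before the start, and Mpo held it at 247 to 242 and again at 224 to 219. A match of letters describes the sequence and is not a measured binding site.

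Products of later neutrophil stages moved less. Of 24 measured late neutrophil genes 9 were called higher and none lower (median 0.31). The chitinase-like Chil3 gave 5.95, 5.90, 6.35 and 5.31 in LT-HSC and 7.72, 9.05, 7.89 and 8.65 in GMP (2.45 ± 0.30), lysozyme Lyz2 rose by 1.81 ± 0.32 and the integrin Itgam by 1.50. The calprotectin subunit S100a8 gave 8.03, 8.29, 9.16 and 6.37 in LT-HSC and 8.78, 10.26, 9.29 and 9.16 in GMP (1.41 ± 0.35). It was called although its groups overlapped, and its highest arrays, LT-HSC replicate 3 and GMP replicate 2, are those in which the neutrophil marker list was highest. Ngp, a secondary granule protein, gave 7.01, 7.44, 8.13 and 6.21 in LT-HSC and 4.92, 8.53, 5.76 and 5.42 in GMP and was not called (-1.04 ± 0.52, adjusted p = 0.145). The same 2 arrays were the highest of their types for Ngp, and without GMP replicate 2 it was called lower (-1.83, adjusted p = 0.000341). S100a8 and Ngp are themselves among the 6 members of the neutrophil marker list, so their match with it is partly built in. Leaving out any 1 sorted array gave 8 or 9 late neutrophil genes called higher. The part of mature neutrophils or their RNA in these values was not tested.

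Monocyte and dendritic cell genes were higher in GMP for 21 of 35 measured members and lower for 2, with a median of 1.05 and 18 members at least 2-fold higher. Csf1r, the receptor for the monocyte growth factor M-CSF, gave 4.77, 5.62, 5.17 and 5.19 in LT-HSC and 8.48, 8.53, 8.49 and 8.48 in GMP (3.31 ± 0.26). Cybb, the catalytic subunit of the NADPH oxidase, gave 6.42, 6.99, 6.57 and 5.42 against 10.24, 10.59, 10.02 and 10.23 (3.92 ± 0.37). Both were clearly separated, and the NADPH oxidase list to which Cybb also belongs had 5 of 6 members called higher (median 1.49), among them the regulatory subunits Ncf4 (2.03 ± 0.11) and Ncf1 (1.90 ± 0.10). Ms4a6c rose by 3.67 ± 0.38, the pore-forming Mpeg1 by 3.60 ± 0.30 and the signalling adapter Tyrobp by 3.36 ± 0.14. The 2 genes called lower were the class II chains H2-Aa (-1.32) and H2-Ab1 (-0.61), which present antigen in dendritic and B cells. The call of H2-Ab1 was lost without GMP replicate 4 (-0.44) or LT-HSC replicate 1 or 2 (-0.57 and -0.61). Lysosomal genes were called higher for 14 of 23 members (median 0.84), led by cathepsins Ctsh (2.68 ± 0.32) and Ctss (2.36 ± 0.19), with Hexa, a subunit of hexosaminidase, at 1.63 ± 0.08.

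Of 15 mast cell and basophil genes 6 were called higher in GMP, 1 lower and 8 not (median 0.23), and of 8 eosinophil genes 6 were higher and none lower (median 0.56). Mcpt8, the basophil protease, gave 5.36, 6.70, 6.22 and 5.41 in LT-HSC and 10.03, 9.69, 9.32 and 9.97 in GMP (3.83 ± 0.46). Prg2, the major basic protein of eosinophil granules, gave 7.66, 7.25, 4.88 and 5.81 in LT-HSC and 9.44, 10.10, 9.34 and 9.32 in GMP (3.15 ± 0.74). The GMP arrays lay above all LT-HSC arrays for both genes, and the LT-HSC arrays were far apart for Prg2. Hdc, which makes histamine, rose by 2.39 ± 0.33 and the mast cell carboxypeptidase Cpa3 by 2.39 ± 0.64 (adjusted p = 0.00454). The member called lower was Gata2, a factor that stem cells also use (-1.37 ± 0.17). The SE of Cpa3 and Prg2 uses a spread shared with the lines, where single groups had an SD of up to 2.00 and 2.37 without dox.

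Of 32 measured transcription factors of myeloid cells 14 were called higher and 2 lower (median 0.24). Irf8, which directs monocyte and dendritic fates, gave 6.33, 6.35, 5.75 and 5.60 in LT-HSC and 8.66, 8.86, 8.70 and 8.65 in GMP (2.71 ± 0.16, adjusted p = 2.09e-12). Spi1, which encodes PU.1, gave 6.65, 6.81, 6.99 and 6.32 against 8.46, 8.32, 8.45 and 8.21 (1.67 ± 0.12), and Cebpa, the factor without which GMP do not form, 6.13, 6.40, 6.07 and 7.05 against 8.02, 8.01, 8.21 and 8.09 (1.67 ± 0.15). In all 3 genes the lowest GMP array stood above the highest LT-HSC array. Cebpd rose by 1.46 ± 0.13, Tfec by 1.30 and Cebpe, which acts late in granulocytes, by 0.70. The 2 called lower were Etv3 (-1.31 ± 0.11) and Nab2 (-0.52), a co-repressor of EGR factors. Myb and Myc, used by dividing progenitors, were not called (0.03 ± 0.11 and -0.04 ± 0.10).

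Receptors for growth factors and cytokines went both ways, with 21 of 48 higher (43.8%) and 11 lower (22.9%). Of all genes 16.8% were higher and 15.3% lower. On the higher side stood Csf2rb, the shared signalling chain of the GM-CSF, IL-3 and IL-5 receptors (1.92 ± 0.17), both chains of the interferon gamma receptor, Ifngr2 (1.65) and Ifngr1 (1.29 ± 0.10), and the shared IL-6 receptor chain Il6st (1.22). The lower side held Tek and Kit. Among integrins and chemokine genes 15 of 33 were higher (45.5%) and 9 lower (27.3%). The chemokines Ccl3 (3.38 ± 0.29) and Ccl9 (3.26 ± 0.12), the collagen-binding integrin Itga1 (3.00 ± 0.29) and the tetraspanin Cd53 (3.62 ± 0.14) rose. The chemokine Pf4 had the largest fall (-5.11 ± 0.42), and Itga6 (-1.29) and Itgb3 (-1.25) fell as well.

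**Figure D3:**
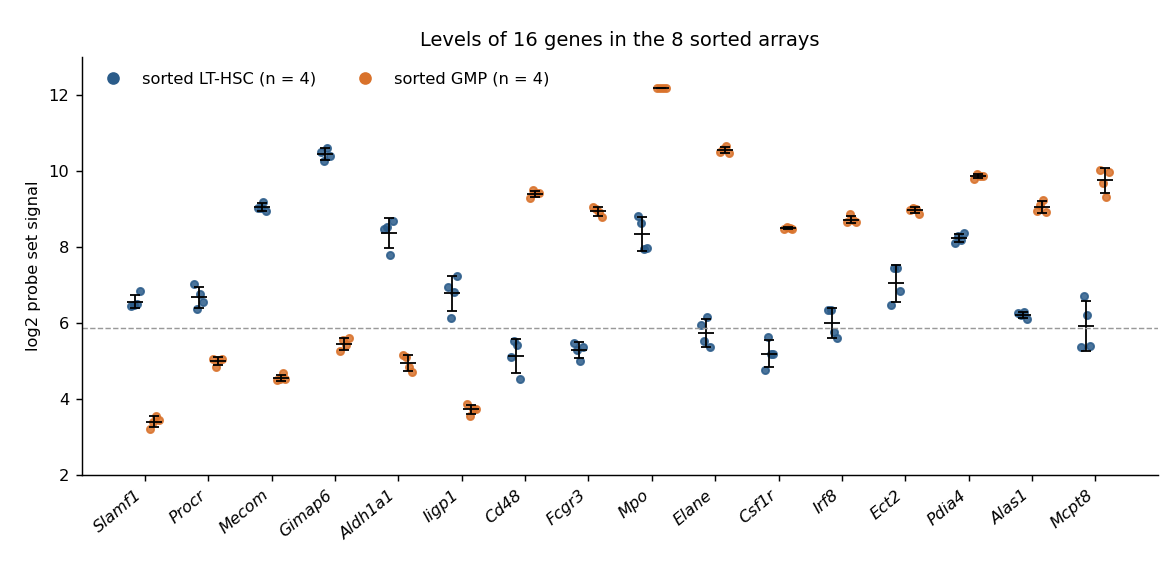
Log2 signal of 16 genes in each sorted array (points), with the mean and SD of each type (bars) and the median of all probe sets (5.86, dashed). LT-HSC and GMP arrays do not overlap for any gene drawn: Mpo, for example, lies at 7.94 to 8.82 in LT-HSC and at 12.18 to 12.20 in GMP, and Gimap6 at 10.26 to 10.62 and 5.25 to 5.61.

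On the stem cell side, 30 of 38 measured HSC transcription factors were called lower in GMP and none higher, with a median of -0.82 and 18 at least 2-fold lower. Hlf, a PAR leucine zipper factor specific to stem cells within blood, gave 9.76, 9.77, 9.72 and 9.32 in LT-HSC and 6.42, 6.37, 6.65 and 6.30 in GMP (-3.20 ± 0.10). The orphan nuclear receptors Nr4a1 and Nr4a2, linked to stem cell quiescence and also induced by handling of cells, fell by 3.32 ± 0.11 and 3.57 ± 0.15. Nr4a2 gave 10.78, 9.88, 9.78 and 10.14 in LT-HSC and 6.99, 6.53, 6.36 and 6.42 in GMP, so neither gene overlapped. Klf12 fell by 3.54 ± 0.16, Hoxa5 by 2.48 ± 0.17 and Zfp521 by 1.80. Not every factor tied to stem cells differed by a called amount, and Runx1 (0.00) and Lyl1 (0.14) were not called. Of 23 immediate early genes, a list that includes Nr4a1, 14 were lower and none higher. The effect of the time and handling of the sort on these genes was not tested.

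HSC surface genes were lower in GMP for 26 of 35 members (median -1.15), and 20 of these were at least 2-fold lower. Tek (Tie2), the receptor through which angiopoietin holds stem cells in the niche, gave 7.08, 7.76, 7.88 and 7.84 in LT-HSC and 4.43, 4.27, 4.33 and 4.45 in GMP (-3.27 ± 0.12). Ctnnal1 fell by 3.14 ± 0.09, as did the adhesion receptor Adgrg1 (-3.11 ± 0.19), Tspan6 (-2.20) and the TGF-beta co-receptor Tgfbr3 (-2.01). The 2 members called higher were the chemokine receptor Cxcr4 (0.96 ± 0.09), which retains cells in the marrow, and Ly6e. Megakaryocyte genes fell with them: 17 of 19 were lower and none higher (median -0.96), among them the thrombin receptor F2r (-2.51 ± 0.28), with 8.44, 8.56, 8.40 and 8.51 in LT-HSC and 6.12, 5.90, 6.17 and 5.68 in GMP, and Rab27b (-1.87), which serves platelet granule release. Of 13 erythroid genes 6 were lower and 1, the transferrin receptor Tfrc, was higher (0.69 ± 0.10).

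All 8 measured genes of the GIMAP family, small GTPases of lymphocytes encoded in a genomic cluster, were lower in GMP (median -1.84). Gimap6 gave 10.51, 10.26, 10.62 and 10.41 in LT-HSC and 5.25, 5.55, 5.42 and 5.61 in GMP (-4.99 ± 0.12, adjusted p = 2.32e-20). Gimap1 gave 7.98, 8.01, 8.52 and 8.93 against 5.80, 5.80, 5.85 and 5.86 (-2.53 ± 0.18), and Gimap5 gave 5.93, 5.49, 7.57 and 7.74 against 3.70, 3.87, 3.81 and 3.79 (-2.89 ± 0.32). The LT-HSC arrays were not uniform: replicates 3 and 4 were above replicates 1 and 2 for Gimap1 and Gimap5, though not for Gimap6. Gimap9, Gimap8, Gimap4 and Gimap3 fell by 2.08, 1.60, 1.42 and 0.91, and Gimap7 (-0.58 ± 0.14) overlapped between the types and was dim. The T and NK cell list had 1 of 21 members higher, Nkg7 (3.08 ± 0.24), which myeloid cells also use. In that list 2 were lower, the adapter Lat (-1.44) and Klrb1c (-0.53). These shares, 4.76% and 9.52%, lay under the 16.8% and 15.3% of all genes.

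Imprinted genes, which are active from the copy of a single parent and are linked to stem cell quiescence, were lower for 11 of 19 members and higher for none (median -0.56). Sgce gave 8.0, 7.36, 7.97 and 7.52 in LT-HSC and 4.97, 4.85, 5.03 and 5.04 in GMP (-2.74 ± 0.12), and Grb10, an adapter that restrains growth factor signalling, gave 8.03, 8.32, 8.38 and 8.32 against 5.74, 5.54, 5.64 and 5.38 (-2.69 ± 0.16). Neither overlapped, and Ndn fell by 2.28 ± 0.14 and Peg10 by 1.63. Cdkn1c, the imprinted cyclin-dependent kinase inhibitor p57 known from quiescent stem cells, fell by 0.56. Among FOXO targets, quiescence and stress defence genes 15 of 31 were lower and 6 higher (median -0.23). Aldh1a1, the aldehyde dehydrogenase that detoxifies reactive aldehydes and makes retinoic acid, led them with 8.47, 8.52, 7.80 and 8.68 in LT-HSC and 5.15, 5.11, 4.83 and 4.72 in GMP (-3.41 ± 0.18). The glutathione transferase Gsta4 fell by 2.16 and Txnip, which restrains glucose uptake, by 1.79 ± 0.19.

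Pathways of TGF-beta, Wnt and Notch had 21 of 46 genes lower (45.7%) and 4 higher (8.7%), with a median of -0.24. Of all genes 15.3% were lower and 16.8% higher. The SMAD co-repressor Skil (-2.54 ± 0.13), Tgfbr3 and the Wnt effector Tcf7l2 (-1.63 ± 0.26) led the lower side of the list. Chromatin regulators were lower for 20 of 43 (46.5%) and higher for 7 (16.3%), the latter near the share of all genes. Tet1, an enzyme that oxidises methylated DNA, gave 9.59, 9.45, 9.69 and 9.38 in LT-HSC and 7.58, 7.57, 7.97 and 7.63 in GMP (-1.84 ± 0.15), its other probe sets gave -1.97 and -1.57, and Smarca2, a motor of the SWI/SNF complex, fell by 1.40. Tet2 ran opposite to Tet1, rising by 0.80. MLL fusion targets outside the Hox clusters were lower for 9 of 16 (56.2%) and higher for 2 (12.5%). Among them Eya1 fell by 2.21 ± 0.25 and Satb1 rose by 1.59 ± 0.50.

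Interferon response and antigen presentation genes were lower in GMP for 25 of 34 members and higher for 3, with a median of -0.62 and 12 at least 2-fold lower. Iigp1, a GTPase that attacks vacuoles of parasites, gave 6.96, 6.12, 6.81 and 7.22 in LT-HSC and 3.85, 3.56, 3.73 and 3.74 in GMP (-3.06 ± 0.15, adjusted p = 2.61e-14). Ddx58 (RIG-I), a sensor of viral RNA, gave 8.57, 8.39, 8.94 and 8.72 against 6.29, 6.03, 5.95 and 6.10 (-2.57 ± 0.10), and Ifitm1, a membrane protein that blocks viral entry, 10.99, 10.75, 10.83 and 10.69 against 8.62, 8.52, 8.51 and 8.21 (-2.35 ± 0.09, and -2.66 on its other probe set). All 3 were higher in every LT-HSC array than in any GMP array. Ddx60 fell by 2.60 ± 0.11, Ifit1 by 1.99, Ifih1 (MDA5) by 1.57, Rsad2 (viperin) by 1.27 and Ifit3 by 1.21. The 3 exceptions were the guanylate-binding protein Gbp3 (1.16 ± 0.14), the immunoproteasome subunit Psmb8 (0.53) and Bst2 (0.30). Ifi209, described above, is no member of this list. The interferon gamma receptor chains Ifngr1 and Ifngr2 rose in the same arrays.

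These promoters are shown because the interferon list has a known control element, to which STAT and IRF factors bind. Its core, GAAA followed after any 2 bases by a second GAAA, was searched on both strands in the 250 bases before the start and found in 11 of 31 promoters of the list (35.5%) and in 2.98% of all promoters. Among promoters of genes at least 2-fold lower in GMP 4.34% held it, and among those at least 2-fold higher 5.75%. Promoters on the chromosome of Iigp1, the list member with the largest fall, were not considered for printing. Among the members considered, the 4 with the largest fall whose promoter holds it were Ddx60, Ifit1, Rsad2 and Ifit3. The match on either strand is in capitals.
Ddx60 (chr8:61927837-61928086, plus strand): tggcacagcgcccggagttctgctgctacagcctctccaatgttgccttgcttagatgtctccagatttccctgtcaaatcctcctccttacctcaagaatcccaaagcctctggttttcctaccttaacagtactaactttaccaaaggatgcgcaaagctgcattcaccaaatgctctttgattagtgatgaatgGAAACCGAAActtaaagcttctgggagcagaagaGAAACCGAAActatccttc
Ifit1 (chr19:34640639-34640888, plus strand): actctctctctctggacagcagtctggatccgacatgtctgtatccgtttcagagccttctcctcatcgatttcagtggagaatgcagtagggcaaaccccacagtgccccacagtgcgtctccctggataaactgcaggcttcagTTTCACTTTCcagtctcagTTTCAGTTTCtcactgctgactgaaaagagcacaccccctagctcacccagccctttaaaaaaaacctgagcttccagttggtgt
Rsad2 (chr12:26456453-26456702, minus strand): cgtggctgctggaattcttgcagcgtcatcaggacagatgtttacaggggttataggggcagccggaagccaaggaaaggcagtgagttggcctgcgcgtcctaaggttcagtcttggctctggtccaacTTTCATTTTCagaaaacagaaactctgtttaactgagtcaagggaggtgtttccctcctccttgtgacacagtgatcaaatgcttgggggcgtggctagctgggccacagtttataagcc
Ifit3 (chr19:34583279-34583528, plus strand): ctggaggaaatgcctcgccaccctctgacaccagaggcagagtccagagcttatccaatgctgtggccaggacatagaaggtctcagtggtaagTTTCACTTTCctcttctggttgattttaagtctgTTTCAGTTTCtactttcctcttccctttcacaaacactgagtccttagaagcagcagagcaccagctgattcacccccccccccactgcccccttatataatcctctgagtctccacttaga
Ddx60 held the element at 53 to 44 and at 19 to 10 bases before its start, Ifit1 at 104 to 95 and 85 to 76, and Ifit3 at 156 to 147 and 122 to 113, while Rsad2 held it at 120 to 111.

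All 41 measured mitosis genes were called higher, with no overlap between the types for any of them (median 0.88, 12 at least 2-fold). Ect2, which drives cytokinesis, gave 6.47, 7.44, 7.45 and 6.83 in LT-HSC and 8.98, 9.04, 9.0 and 8.86 in GMP (1.92 ± 0.15), and Bub1, a kinase of the spindle checkpoint, 8.46, 8.42, 8.54 and 8.59 against 9.70, 9.81, 9.72 and 9.85 (1.27 ± 0.06). Ttk rose by 1.24 and Kif2c by 1.22. The mean over the 41 genes was 8.23 and 8.21 in LT-HSC replicates 2 and 3, 7.86 and 8.03 in replicates 1 and 4, and 8.94 to 9.05 in GMP. LT-HSC arrays thus held less of this RNA than GMP arrays but not a uniform amount of it.

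DNA replication genes followed, with 36 of 39 higher and none lower (median 0.46). Gins1, part of the replicative helicase, gave 7.54, 8.14, 8.11 and 7.80 in LT-HSC and 9.10, 9.21, 9.24 and 9.24 in GMP (1.30 ± 0.12), and Cdc6, which loads that helicase, rose by 1.20 ± 0.10. The 3 not called were the sliding clamp Pcna (0.04 ± 0.08), Rfc3 and the primase Prim1, which was called higher without LT-HSC replicate 3 (0.32). Regulators of the G1 phase split evenly, 8 of 31 higher and 8 lower (25.8% each). Of all genes 16.8% were higher and 15.3% lower, also a nearly even split. The D cyclins Ccnd1 (-0.69 ± 0.18), Ccnd2 (-0.83) and Ccnd3 (-0.36) fell, while the E cyclins Ccne2 (0.73) and Ccne1 (0.56), Cdk6 (0.47) and the inhibitor Cdkn2c (1.24 ± 0.17) rose. Cdkn1b, the inhibitor p27, was not called (0.01 ± 0.16), and the kinase Cdk14, which couples to Wnt signalling, fell by 1.42 ± 0.11.

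Promoters of mitosis genes are shown because they often carry CCAAT boxes, bound by NF-Y. CCAAT on either strand was found in 26 of 35 promoters of the mitosis list (74.3%), in 71.9% of the 32 promoters of the secretory pathway list described below and in 33.8% of all promoters. Lists with fewer members that rose held it often too, in 72% of promoters of cholesterol and fatty acid synthesis genes and in 59.3% of those of FOXO, quiescence and stress defence genes. For genes at least 2-fold higher the share was 38.6%, and for genes at least 2-fold lower 31.8%. Ect2, Aurka and Bub1, the mitosis genes with the largest difference whose promoter holds the letters, are printed with CCAAT or its reverse complement ATTGG in capitals.
Ect2 (chr3:27153879-27154128, minus strand): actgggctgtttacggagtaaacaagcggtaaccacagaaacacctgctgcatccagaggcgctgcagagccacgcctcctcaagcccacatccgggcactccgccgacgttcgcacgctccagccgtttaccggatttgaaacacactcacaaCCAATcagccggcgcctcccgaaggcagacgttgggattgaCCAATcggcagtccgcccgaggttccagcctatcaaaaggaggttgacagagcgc
Aurka (chr2:172370571-172370820, minus strand): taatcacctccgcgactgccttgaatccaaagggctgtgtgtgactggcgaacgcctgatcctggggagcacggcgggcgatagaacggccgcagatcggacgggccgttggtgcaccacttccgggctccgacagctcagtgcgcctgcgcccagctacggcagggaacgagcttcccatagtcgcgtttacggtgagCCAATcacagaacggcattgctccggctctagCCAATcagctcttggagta
Bub1 (chr2:127831860-127832109, minus strand): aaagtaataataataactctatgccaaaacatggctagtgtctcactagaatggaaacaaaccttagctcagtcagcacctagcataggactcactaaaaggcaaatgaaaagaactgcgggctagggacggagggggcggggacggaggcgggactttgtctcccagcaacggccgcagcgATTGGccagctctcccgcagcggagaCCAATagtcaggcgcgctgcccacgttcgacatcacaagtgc
Each held 2 matches within the last 100 bases: Ect2 at 96 to 92 and 55 to 51 bases before the start, Aurka at 51 to 47 and 19 to 15, and Bub1 at 68 to 64 and 42 to 38. The other 5 motifs searched were TGTGGT for RUNX factors, TTGCNNAA for C/EBP factors, AACNGTT for MYB factors, AGATAA for GATA factors and CACGTG for E-box factors such as MYC. They were held by 15.8%, 10.3%, 4.11%, 7.19% and 7.39% of the promoters of genes at least 2-fold higher, by 10.8%, 8.51%, 3.65%, 9.03% and 7.12% of those at least 2-fold lower, and by 14.0%, 9.56%, 3.80%, 9.99% and 6.02% of all promoters, in that order.

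DNA repair genes were higher for 21 of 36 members (median 0.32), led by Fancd2 of the crosslink repair pathway, with 5.99, 6.33, 6.38 and 5.64 in LT-HSC and 7.54, 7.73, 8.03 and 7.68 in GMP (1.66 ± 0.12). A single member fell, and by more than any other member rose. Xrcc5, which encodes the Ku80 subunit of the Ku dimer that holds broken DNA ends for end joining, gave 8.03, 8.33, 8.47 and 8.62 in LT-HSC and 5.35, 4.91, 5.40 and 4.72 in GMP (-3.27 ± 0.17, adjusted p = 1.24e-13). Its partner Xrcc6 (Ku70) was not called, with 8.07, 8.11, 8.13 and 7.95 against 7.93, 7.88, 8.32 and 7.86 (-0.07 ± 0.09). The Xrcc5 value rests on 1 probe set, and which part of the gene it covers was not checked here. The mean of that probe set was 5.37 in LT-HSC-derived and 4.97 in GMP-derived lines without dox, so the fresh LT-HSC were the arrays that stood apart.

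The machinery of mitochondria and of secretion was higher in GMP in nearly every member. Of 44 respiratory chain genes 43 were higher (median 0.54), with Ndufs7 not called except without LT-HSC replicate 1 or 2 (0.28 and 0.31). Ndufb3 of complex I gave 7.60, 7.71, 8.10 and 7.04 in LT-HSC and 8.62, 8.77, 8.53 and 8.64 in GMP (1.02 ± 0.14), and cytochrome c (Cycs) 10.43, 10.40, 10.59 and 10.30 against 11.30, 11.39, 11.25 and 11.35 (0.89 ± 0.06). The shifts were small but separated every array for these genes. TCA cycle genes were higher for 18 of 21 (median 0.49), among them Me2 (0.98) and Idh2 (0.81), and only Suclg2 was lower (-0.33).

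Of 39 genes for folding and secretion in the endoplasmic reticulum 37 were higher and none lower (median 0.78, 13 at least 2-fold). The disulfide isomerase Pdia4 gave 8.10, 8.30, 8.20 and 8.36 in LT-HSC and 9.78, 9.91, 9.87 and 9.88 in GMP (1.62 ± 0.08), and Edem1, which sends misfolded proteins to degradation, gave 6.94, 6.96, 7.0 and 7.06 against 8.72, 8.67, 8.72 and 8.85 (1.75 ± 0.07). P4hb rose by 1.46 ± 0.08. Dnajb9 and Srp14 were not called. Xbp1, a factor that drives such genes, rose by 0.75.

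Glycolysis and hypoxia genes had no common direction, with 10 of 29 higher and 9 lower. Slc2a3 (GLUT3), the high-affinity glucose carrier, gave 8.40, 8.27, 8.19 and 8.43 in LT-HSC and 6.12, 6.36, 5.98 and 6.16 in GMP (-2.17 ± 0.19). It was lower in every GMP array, whereas the glycolytic enzyme Pgam1 was higher (1.16 ± 0.08), as were Aldoa (0.89) and Hk2 (0.82). The heme and iron list had 4 of 19 higher (21.1%) and 2 lower (10.5%), against 16.8% and 15.3% of all genes. In it Alas1 stood out by size. This enzyme, which starts heme synthesis outside red cells, gave 6.25, 6.20, 6.28 and 6.11 in LT-HSC and 8.95, 9.11, 9.24 and 8.92 in GMP (2.85 ± 0.11, adjusted p = 6.64e-16). Its erythroid counterpart Alas2 was lower by 0.30 ± 0.09 with overlapping arrays, a call that was lost without LT-HSC replicate 4 (-0.25).

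Of 37 genes for amino acid supply and tRNA charging 18 were higher and 2 lower, with mitochondrial folate enzyme Mthfd2 first (1.21) and asparagine synthetase Asns lower (-0.51). Cholesterol and fatty acid synthesis had 7 of 25 higher, led by Fdps (1.32) and Ebp (1.15), and 2 lower, one of them the regulator Srebf2 (-0.84). Nucleolar genes were higher for 15 of 38 (median 0.15), led by Ftsj3 (0.86). Ribosomal protein genes stayed level on their brightest probe sets, with 2 of 27 higher and 1 lower, and their mean lay between 11.40 and 11.44 in all 8 arrays. Other probe sets of these genes went both ways, from -0.20 for 1 of Rpl10 to 0.92 for 1 of Rpl19. In the BCL2 family Bid (1.08 ± 0.10) and Bak1 (0.96), which promote cell death, were among 4 of 15 members that rose, and the survival genes Bcl2l1 (-0.95 ± 0.09) and Mcl1 (-0.59 ± 0.10) fell. B cell genes had 1 of 18 higher and none lower. Stromal and endothelial genes had 2 of 20 higher and 3 lower, of which Emcn was the largest by far. In the epithelial-mesenchymal transition list 7 of 26 were higher, including vimentin (Vim, 1.26), and 3 lower. Beside the counts of this paragraph stand 16.8% of all genes higher and 15.3% lower. The stromal and endothelial shares, 10% and 15%, were not above these.

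**Figure D4:**
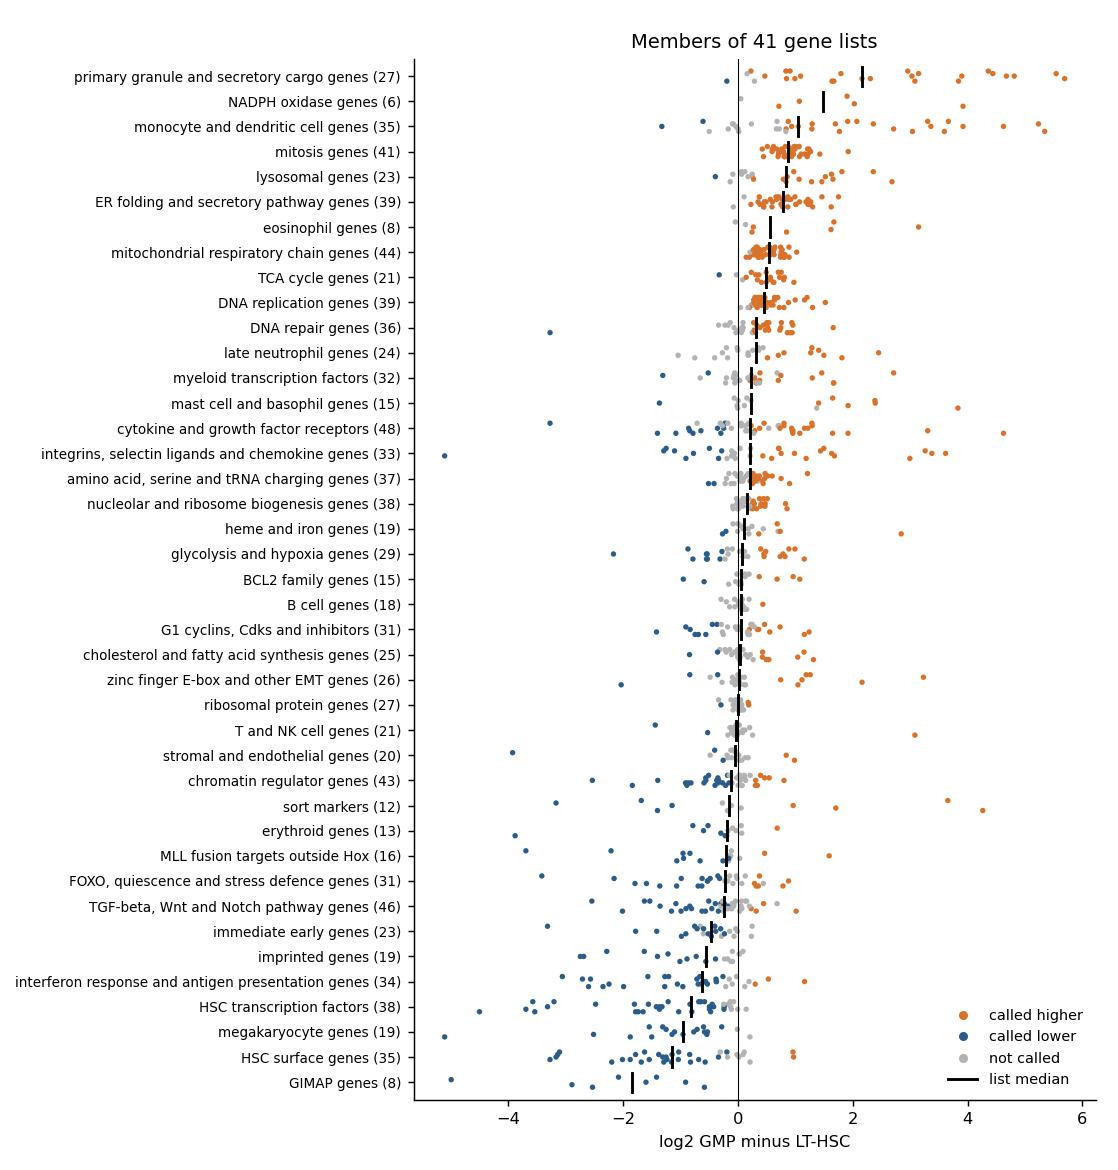
Log2 difference of GMP minus LT-HSC (horizontal axis) for each measured member of the 41 gene lists (rows; points), with the list's median as a black bar. GIMAP genes (median -1.84), HSC surface genes (-1.15) and megakaryocyte genes (-0.96) lie lowest, and primary granule genes (2.16), NADPH oxidase genes (1.49) and monocyte genes (1.05) highest.

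The array also carries 300 microRNA genes, whose probe sets read the hairpin or its precursor transcript and not the mature RNA. Of these 8 were called higher and 27 lower in GMP, a share of 11.7% called, under the 32.1% of all genes. The clearest were Mir99a, Mir28a and Mir15a, chosen after their values were seen, and Mir15b is added because it shares the seed of Mir15a. Their main mature strands are printed from RefSeq, 5′ to 3′, with the seed, bases 2 to 8, in capitals. The locations in GRCm38.p6 are chr16:77598940-77598961 (plus strand) for miR-99a-5p, chr16:24827868-24827889 (plus) for miR-28a-5p, chr14:61632075-61632096 (minus) for miR-15a-5p and chr3:69009775-69009796 (plus) for miR-15b-5p.
miR-99a-5p: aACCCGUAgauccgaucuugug
miR-28a-5p: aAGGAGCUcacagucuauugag
miR-15a-5p: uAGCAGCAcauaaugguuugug
miR-15b-5p: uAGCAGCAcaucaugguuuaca
Mir99a, of a family that stem cells express highly, gave 6.75, 6.06, 5.09 and 6.67 in LT-HSC and 4.65, 3.50, 3.62 and 4.39 in GMP (-2.10 ± 0.28). Mir28a gave 5.86, 5.53, 6.03 and 5.30 against 3.90, 4.67, 4.59 and 4.38 (-1.30 ± 0.17), and its host gene Lpp fell as well (-1.68 ± 0.23). Mir15a ran the other way, with 4.74, 5.26, 4.55 and 5.43 in LT-HSC and 6.96, 6.03, 5.52 and 6.78 in GMP (1.33 ± 0.27), as did its host Dleu2 (0.70 ± 0.27, adjusted p = 0.0479). Mir15b (0.70 ± 0.13) and its host Smc4 (0.45 ± 0.05), a condensin subunit, also rose, although Mir15b and Dleu2 lay near the median of olfactory receptor genes in both types, so the size of their change is uncertain. The call of Dleu2 was lost without LT-HSC replicate 1 or 2 (0.58 and 0.55) or GMP replicate 2 or 4 (0.57 and 0.65).

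The origin difference in fresh cells was set beside that in the lines at 48 h, GMP-derived minus LT-HSC-derived. The line arrays carry 4 line names, each of which recurs across the culture groups, and 3 of the names occur in lines of both origins. A name shared by both origins covers separate lines. Of the 509 genes at least 2-fold higher in sorted GMP, 98 (19.3%) were called higher in GMP-derived lines without dox and 38 (7.47%) lower, where 3.28% of all genes were higher and 3.52% lower. Their median difference in the lines was 0.20. Of the 565 genes at least 2-fold lower, 104 (18.4%) were lower and 16 (2.83%) higher in the lines (median -0.12). From the side of the lines, these shared calls were 15% of all genes higher and 14.8% of all genes lower in GMP-derived lines. With dox, 28 (5.50%) of the 509 were higher and 16 (3.14%) lower, and 82 (14.5%) of the 565 were lower and 8 (1.42%) higher, where 0.943% of all genes were higher and 1.17% lower. The shared calls were 14.9% of all genes higher and 35.2% of all genes lower in the lines with dox.

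A test of the difference between the 2 origin differences called 22.5% of all genes in lines without dox: for 2457 genes (12.3%) GMP minus LT-HSC was larger in fresh cells than in lines and for 2026 (10.2%) smaller. With dox it called 17.8%, on the larger side 9.23% and on the smaller side 8.62%. The basophil, mast cell and eosinophil genes had the largest such values. Mcpt8, higher in sorted GMP, averaged 11.35 ± 0.45 (SD, n = 3) in LT-HSC-derived and 8.42 ± 1.69 (n = 3) in GMP-derived lines without dox, and the fresh difference exceeded that in lines by 6.75 ± 0.70. Prg2 (6.41 ± 1.13), Cpa3 (6.21 ± 0.98) and Rnase12 (5.60 ± 0.76), of the ribonuclease A family, did the same, with means of 10.32 against 7.06, 9.28 against 5.46 and 8.19 against 5.20 in LT-HSC-derived and GMP-derived lines. All 4 genes were thus called higher in fresh GMP and lower in GMP-derived lines, opposite in direction. The GMP-derived lines varied widely among themselves for them.

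Other large differences between the contrasts came from genes with smaller or uncalled differences in the lines. Atp8b4 and Ctsg, far higher in fresh GMP, differed by 5.67 and 5.94 more in fresh cells, and neither was called between the lines. Ctsg averaged 11.26 in LT-HSC-derived and 11.01 in GMP-derived lines, near its level in fresh GMP. Mmrn1 (-4.92), Bex1 (-4.90), Myct1 (-4.36), Plxdc2 (-4.31), Gimap6 (-4.14) and Prkg1 (-4.01) gave the lowest values, and of these only Gimap6 was called between the lines (-0.85 ± 0.13, adjusted p = 0.000198). Emcn, Sgce, Grb10, Ndn and Iigp1 read near their fresh GMP level in lines of either origin: Grb10 averaged 5.61 and 5.68 and Iigp1 3.68 and 3.77 in LT-HSC-derived and GMP-derived lines. Ifitm1 was not, at 11.75 and 11.42, above the fresh LT-HSC. Among the genes that differed in the same direction in culture, Tet1 was 7.51 in LT-HSC-derived and 5.73 in GMP-derived lines (-1.78 ± 0.17, adjusted p = 2.41e-07), next to -1.84 in fresh cells, and Ctla2a was 8.15 and 4.88 (-3.26 ± 0.62), next to -4.74. Ifi209 also kept its direction, with 6.27 and 9.17 in the lines (2.90 ± 0.63), next to 5.79.

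**Figure D5:**
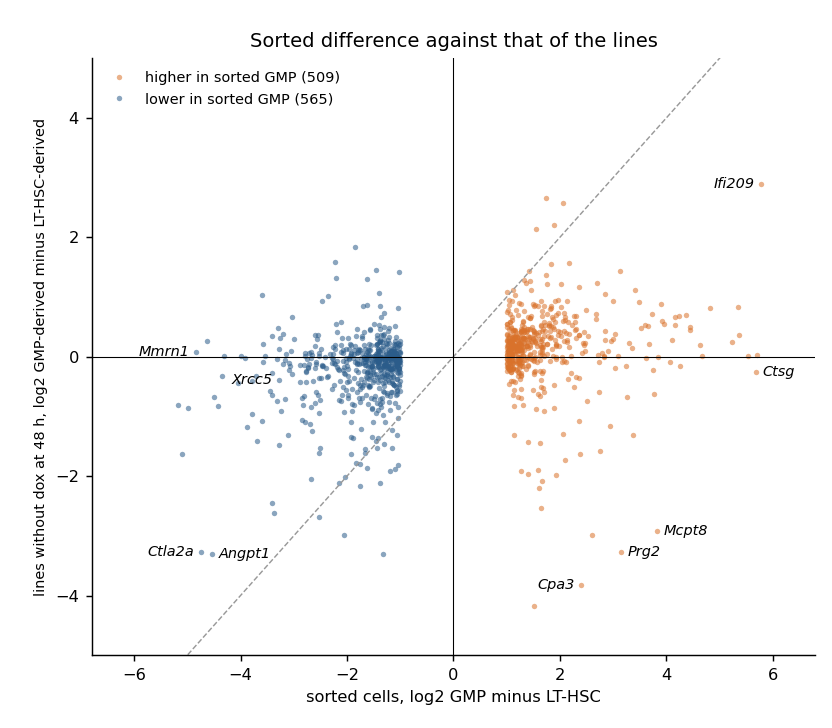
Log2 difference GMP minus LT-HSC in fresh cells (horizontal axis) against the difference GMP-derived minus LT-HSC-derived in lines without dox at 48 h (vertical axis) for the 1074 genes at least 2-fold apart in fresh cells, with equality dashed. Most points lie near 0 on the vertical axis (medians 0.20 and -0.12). Mcpt8, Prg2 and Cpa3 lie at the lower right, and Ctla2a lies at the lower left.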

How the data were processed

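RNA of 26 samples was measured on Affymetrix gene-level arrays. A kit for small samples gave total RNA, which was amplified and turned into biotin-labelled sense-strand target, per the labels' protocols. The authors deposited log2 signals for 34760 probe sets per array. The submitters' processing notes name limma and R 3.1.1. How background was removed and how probe sets were summarised and normalized was not given in the sources used here.

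Of the probe sets 21640 carried 1 symbol, 1321 several and 11799 none. Each of 19937 genes took its brightest probe set with 1 symbol, and 954 genes had more than 1. Names were matched to RefSeq GRCm38.p6 by gene ID for 21553 probe sets. Using limma 3.58.1 (lmFit, contrasts.fit, eBayes) under R 4.3.3, a mean for each of the 8 groups was fitted over the 26 arrays, with Benjamini-Hochberg adjustment over all genes, 2-sided. No filter on dim probe sets was used. The contrasts were GMP minus LT-HSC in sorted cells and that value minus the same difference in lines at 48 h, without and with dox (lines: n = 3 LT-HSC-derived and 3 GMP-derived without dox, 2 and 4 with dox). The labels' hours have no stated start. A list is described by its counts and median only.

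The members of the 41 lists, the tests and the alternatives were chosen with earlier results of these data known. The named genes are the 15 largest increases and 15 largest decreases whose arrays do not overlap and whose higher mean exceeds the overall probe set median, up to 6 members of a list with the largest difference, all sort markers, HSC and myeloid transcription factors, G1 genes and GIMAP genes, and the 6 largest values on each side of the contrasts with the lines. Not all genes that meet the rule are described. Other genes named were chosen after their values were seen: Mpo, Prtn3, Igsf6, Ngp, Tyrobp, Ifngr1, Il6st, Itga6, Itgb3, Tet2, Ifit1, Ifih1, Rsad2, Ifit3, Xrcc6, the microRNAs and their hosts, and exceptions within a list. Alternatives were quantile normalization, median centring, a filter on dim probe sets, the mean of all probe sets of a gene, a fit on the compared groups alone, a replicate block, a trended prior, array weights and leaving out each array in turn. The procedure was tested on simulated data. Deviations of sorted samples with the same replicate number correlated by 0.06 at most. Titles of the cultured arrays name their line, and arrays of the same line recur across dox and time, under replicate numbers that do not always match. The fit took them as separate samples. The block for the contrasts with the lines used the line names, with a shared effect where both origins carry a name. Whether a name shared by both origins marks a shared animal is not stated. Promoters, 250 bases before each RefSeq start, were searched for 8 motifs, and 15613 of the genes tested had a promoter.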

Additional observations from a re-analysis of the deposited data

Results flagged for a closer look

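In 390 groups of 4 arrays, LT-HSC and GMP for each of the 195 genes named, 15 groups (3.85%) held 1 array far from the other 3 by Dixon's gap ratio. Chance gives about 1 in 20. Of these 15 arrays 4 were LT-HSC replicate 1 and 4 were GMP replicate 3.

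LT-HSC replicate 1 was high for Ctsg (6.52, the others up to 5.58) and low for Grb10 (8.03, the others from 8.32), Il6st (7.67, from 8.0) and Tek (7.09, from 7.77). GMP replicate 3 was low for Ms4a6c (10.55, the others from 10.76) and Trpc6 (4.27, from 4.57) and high for Tet1 (7.97, up to 7.63) and Xrcc6 (8.32, up to 7.93). LT-HSC replicate 3 was high for Itgam (5.35, up to 4.76) and Zfp521 (6.87, up to 6.45), and LT-HSC replicate 4 was low for Hlf (9.32, from 9.72) and high for Slamf1 (6.83, up to 6.50). GMP replicate 1 was high for Prkg1 (4.65, up to 4.44), replicate 2 for Prg2 (10.10, up to 9.44), and replicate 4 was low for Zfp521 (4.48, from 4.79).

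The origin difference in fresh cells differed from that in lines by a tested amount for many genes. In lines without dox the values above 0 were those of Mcpt8 (6.75), Prg2 (6.41), Cpa3 (6.21), Ctsg (5.94), Atp8b4 (5.67) and Rnase12 (5.60), and those below 0 were Mmrn1 (-4.92), Bex1 (-4.90), Myct1 (-4.36), Plxdc2 (-4.31), Gimap6 (-4.14) and Prkg1 (-4.01). In lines with dox they were Prg2 (6.21), Mcpt8 (5.91), Rnase12 (5.75), Ms4a3 (5.62), Ctsg (5.60) and Cpa3 (5.60) above 0, and Bex1 (-5.64), Mmrn1 (-4.90), Myct1 (-4.66), Pf4 (-4.64), Trpc6 (-4.16) and Emcn (-4.12) below.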

How the results depend on the processing

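Under the 16 alternatives of the sorted comparison the called genes numbered 5870 to 6439 (6402 as reported) and those at least 2-fold apart 994 to 1128 (1074), with 86.8% to 98.9% of the reported calls shared. Leaving out 1 array gave 5870 to 6292 calls. The median of all genes moved to 0.03 under median centring, and 59.6% of calls were then on the higher side, against 52.5% as reported and 46.9% under quantile normalization. Of 176 named genes called, 172 kept call and direction under every alternative that tested them, the others being Alas2, Cd63, Dleu2 and H2-Ab1, and none reversed. Of 41 list counts 6 moved by over 1.5 times: nucleolar genes higher to 9 under quantile normalization (15), with the dim filter GIMAP genes lower to 5 (8), erythroid genes lower to 3 (6) and T and NK cell genes lower to 1 (2), where fewer genes were tested, heme and iron genes higher to 7 under median centring (4), and ribosomal protein genes higher (2) to 5 with the mean of all probe sets, to 1 in a fit of the compared groups alone and under quantile normalization, and to 1 to 2 leaving out 1 array. Apart from the filter, the cause was not tested.

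The contrasts with the lines called 3947 to 4455 genes (4483) without dox and 2442 to 3553 (3558) with dox when 1 array was left out. Deviations of sorted LT-HSC and GMP arrays with the same replicate number correlated by 0.06, 0.02, 0.03 and 0.05 for numbers 1 to 4. Pairs with unlike numbers ranged from -0.07 to 0.08. Whether arrays of the same number share an animal is not stated, and these values cannot decide it. With that number as a replicate block 6384 genes were called. With the sorted numbers and the line names of the cultured arrays as blocks the contrasts with the lines called 4474 genes without dox and 3573 with dox. That block gave lines of both origins with the same name a shared effect. It did not model each line separately, so these counts cannot show what the recurrence of a line across arrays does. Signals at the level of olfactory receptor genes limit the size of a difference.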

Other observations

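The LT-HSC arrays varied in gene groups, not only in single genes. The mean log2 signal of the 39 DNA replication genes was 7.91, 8.14, 8.10 and 7.98 in LT-HSC replicates 1 to 4, and that of the 36 DNA repair genes 7.14, 7.33, 7.36 and 7.24, so replicates 2 and 3 were the highest in both, as for the mitosis genes. In GMP the same lists stayed between 8.53 and 8.64 and between 7.52 and 7.60. Interferon response genes had another order, with 7.36, 7.24, 7.57 and 7.60, and GIMAP genes with 6.59, 6.56, 7.07 and 6.98, highest in LT-HSC replicates 3 and 4, against 6.54 to 6.62 and 4.65 to 4.69 in GMP. Late neutrophil genes averaged 7.08 in GMP replicate 2 and 6.31 to 6.46 in the other GMP arrays. Replicate numbers have no order, and these patterns, seen in the data, were not tested.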
